A study of Mus musculus with 12 samples.

Results

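Nfat5-KO_600 was compared with Scr_600, that is, mpkCCD cells whose Nfat5 gene had been targeted with CRISPR/Cas9 with control cells that had received a scramble, non-targeting guide RNA, both after hypertonic culture. mpkCCD cells are a mouse line with features of the principal cells that line the renal collecting duct. The knockout group consisted of 4 libraries made from clones named N1 and N3, and Scr_600 of 2 libraries, so this comparison used 6 of the 12 libraries of the study. All 6 cultures were kept for 5 days at 600 mosmol/kg, reached by adding 100 mM NaCl and 100 mM urea, and the other 6 libraries (Nfat5-KO_300 and Scr_300) came from cells kept at 300 mosmol/kg. The knockout cells were clones, and changes that arose when the clones were isolated cannot be told apart from changes due to the missing Nfat5. Genes entered the comparison if they had at least 0.5 FPKM (fragments per kilobase of transcript, scaled to the number of mapped fragments) in Nfat5-KO_600 or in Scr_600, which left 13063 of 52015 genes. At this limit, Srcap was just inside with 0.501 FPKM in Nfat5-KO_600 compared with 0.358 FPKM in Scr_600, and Gnmt was just outside with 0.499 and 0.272 FPKM. The authors deposited 1 FPKM value per gene and group. Differences are therefore log2 ratios of FPKM + 0.1, negative where Nfat5-KO_600 was lower, and they have no SD or p-value. The addition of 0.1 understates the change of genes with low FPKM.

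NFAT5, also called TonEBP, is a transcription factor that accumulates and enters the nucleus when cells are exposed to hypertonicity, and it binds tonicity-responsive enhancers (TonE). Its best known targets raise the content of organic osmolytes, namely aldose reductase, which makes sorbitol, and the transporters of betaine, myo-inositol and taurine, and it also drives the inducible heat shock protein Hsp70. Principal cells of the renal medulla face high interstitial NaCl and urea, and NFAT5 is known there for protecting cells from osmotic stress and for supporting the water channels of the urinary concentrating mechanism.

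The whole reads behind the deposited means could be worked out for part of the genes, since FPKM times gene length is a sum of whole reads, each worth a fixed step in its library. For 10541 of 12918 genes that matched the GENCODE annotation, the reads of both Scr_600 libraries were recovered. The Scr_600 libraries had 37.1 and 35.1 M reads and are called the deeper and the shallower library, as the recovery does not tell which sample each one was. The 4 Nfat5-KO_600 libraries had 33.2 to 37.5 M reads, and their single values were recovered for 962 genes with few reads. In the deposited means, 262 and 276 genes lay at the value of 1 read of the pair of deeper Nfat5-KO_600 libraries, against 970 and 821 genes for the other pair. These counts are not limited to the 962 genes. The Scr_600 libraries differed from each other at least 2-fold in 588 genes (5.58%), and these differences are given beside the results they touch. Library values were trusted for genes with up to 8000 reads in both libraries together, and those given for Nfat5, Nupr1, Afap1l1, Slco4a1, Gstm1, Cldn4, Pax2, Ehf, Tfcp2l1, Lss, Cars, Slc7a6 and Dusp6 rest on a wider limit of 20000 reads. The methods of the study call the libraries biological replicates, without saying how the cultures were kept apart. Of the genes listed as markers of principal cells, Krt8, Krt18, Epcam and Cdh1 carried nearly all of a summed level of 1045 FPKM in Nfat5-KO_600 compared with 1165 FPKM in Scr_600, whereas 5 of the 16 markers were under 0.1 FPKM in both groups. These 4 genes are expressed in epithelia in general, so the sum does not tell principal cells from other epithelial cells. The median log2 ratio of the 9 principal cell markers in the comparison was 0.21, and Hsd11b2, Gata3 and Tfcp2l1 were at least 2-fold higher and Kcnj1 at least 2-fold lower, as described with their groups. Aqp2, the vasopressin-regulated water channel that defines these cells, was at 0.219 FPKM in Nfat5-KO_600 compared with 0.245 FPKM in Scr_600, so this defining marker was nearly absent from both. Markers of other cells stayed low, with sums of 5.05 and 3.20 FPKM for intercalated cells, 1.27 and 0.845 FPKM for the proximal tubule (mostly Lrp2, megalin, in Nfat5-KO_600, at 1.07 against 0.0116 FPKM, and Slc17a1 in Scr_600, at 0.0310 against 0.785 FPKM), 0.424 and 0.126 FPKM for the thick limb and distal tubule, and 1.78 and 2.14 FPKM for stroma, endothelium and blood. In bulk RNA, fewer cells of a type and less RNA per cell cannot be told apart.

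The targeted gene, Nfat5, was read at 6.88 FPKM in the knockout cells and 7.93 FPKM in Scr_600 (log2 ratio -0.20). Its values in the Scr_600 libraries were 8.64 and 7.22 FPKM, so the knockout mean lay below both. In isotonic culture it had 3.47 and 5.61 FPKM, a log2 ratio of -0.68. Nfat5 mRNA was thus still present in the knockout cells, and a transcript with small edits is counted like an intact one. The other 9 genes of the NFAT and calcineurin group, with a median log2 ratio of 0.14, included none with a 2-fold difference, and Rcan1, an inhibitor of calcineurin, was the member farthest from 0, at 19.9 against 10.1 FPKM (8.34 and 11.8 FPKM in the Scr_600 libraries).

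Of the 13063 genes, 481 (3.68%) were at least 2-fold lower and 491 (3.76%) at least 2-fold higher in Nfat5-KO_600, together 972 genes (7.44%). Over all genes the median was -0.02, with 6817 genes lower (52.2%) and 6246 higher. The counts given for the gene lists below are to be read beside these shares of all genes. When the values were rescaled to a common sum (TPM), 697 genes were 2-fold higher and 441 lower, so that 61.2% of the 2-fold differences were higher in place of 50.5%, and the median of all genes was 0.11. The medians of 8 lists changed sign with this scaling, and for these lists (keratins, immediate early genes, DNA replication, kidney transcription factors, co-chaperones, claudins, metallothioneins and mitosis) no direction is given. The 2-fold differences were concentrated in genes with low FPKM. Of the 1430 genes that were under 1 FPKM in both groups, 19.7% differed at least 2-fold, and the Scr_600 libraries differed from each other 2-fold in 18.4% of such genes with library values. Of the 2716 genes with at least 20 FPKM in Nfat5-KO_600 or in Scr_600 these shares were 3.79% and 1.78%. When the genes were ordered by expression, the 4355 most highly expressed genes held more 2-fold lower genes (84) than 2-fold higher genes (34), and the 4355 with the lowest expression held 314 lower and 379 higher.

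**Figure D1:**
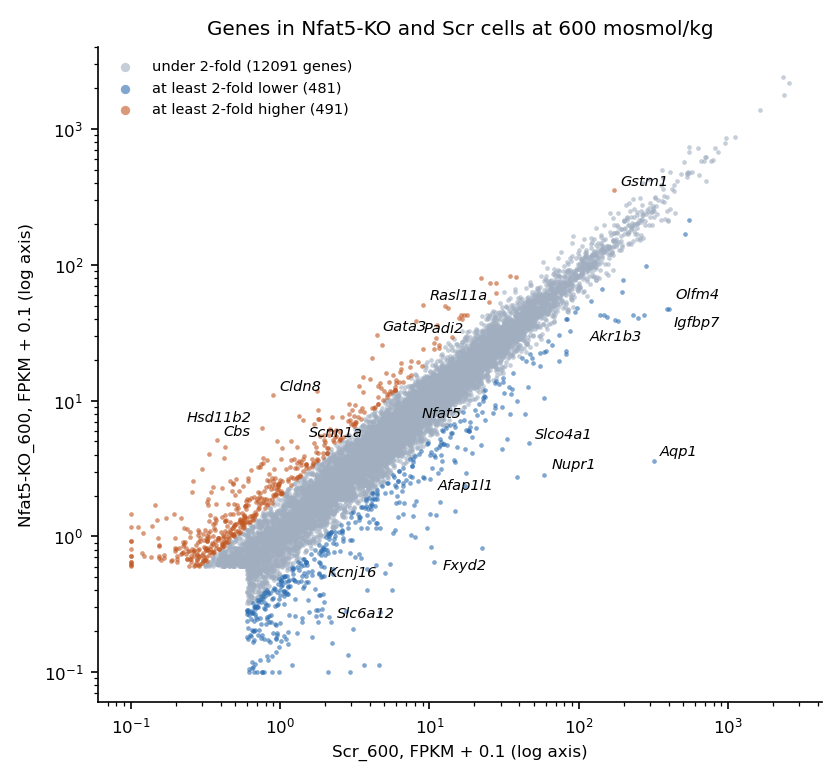
FPKM + 0.1 of each of the 13063 genes in Scr_600 (horizontal axis) and in Nfat5-KO_600 (vertical axis), both on log axes, with the 481 genes at least 2-fold lower in blue and the 491 at least 2-fold higher in orange. Most points lie along the diagonal up to more than 2000 FPKM, and Aqp1, Olfm4 and Igfbp7 stand apart at the lower right, near 400 FPKM in Scr_600.

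A gene can differ 2-fold from a mean of 2 libraries because of 1 of them. Of the 343 genes that were 2-fold lower and had library values, 187 (54.5%) were 2-fold lower than each Scr_600 library, and in 104 of the 343 the Scr_600 libraries were themselves at least 2-fold apart. Of the 443 such genes that were 2-fold higher, 301 (67.9%) were 2-fold higher than each library and 86 had Scr_600 libraries 2-fold apart. Over all 10541 genes, 1.77% were 2-fold lower than each Scr_600 library and 2.86% were 2-fold higher than each.

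Among genes with at least 5 FPKM in one group and 0.1 FPKM in both, Aqp1 had the lowest ratio. This water channel had 3.51 FPKM in Nfat5-KO_600 compared with 318 FPKM in Scr_600, which is 90.6-fold lower (log2 ratio -6.46). Nupr1, a stress-induced chromatin protein, had 2.73 against 58.2 FPKM (-4.36), with 59.6 and 56.7 FPKM in the Scr_600 libraries. Fxyd2, the gamma subunit of the sodium pump, had 0.552 FPKM against 6.02 FPKM in the deeper and 15.3 FPKM in the shallower Scr_600 library (-4.05). In each of these genes the knockout mean was far below both control libraries wherever these were known. Afap1l1, an actin filament-associated protein, had 2.61 FPKM against 36.5 and 40.5 FPKM (-3.83). Tmem238l had 1.44 FPKM against 13.0 and 16.4 FPKM (-3.26). Slco4a1, an organic anion transporter, had 4.77 FPKM against 40.5 and 51.9 FPKM (-3.25). The Scr_600 libraries differed little from each other in these 3 genes. Kcnj16, an inwardly rectifying potassium channel subunit, had 0.526 FPKM against 5.08 and 5.63 FPKM (-3.13). Olfm4, a secreted glycoprotein, had 46.9 against 400.3 FPKM (-3.09), and Igfbp7, a secreted IGF-binding protein, had 47.4 against 391 FPKM (-3.04). Ampd3, an AMP deaminase, had 2.26 FPKM against 16.2 and 18.4 FPKM (-2.88). Ifit1bl1, of the interferon-induced Ifit family, and Egr1, an immediate early transcription factor, completed the 12 lowest genes, and both had Scr_600 libraries that differed by more than 2-fold. Ifit1bl1 had 1.06 FPKM against 3.16 FPKM in the deeper and 16.0 FPKM in the shallower library (-3.06), and Egr1 had 1.3 FPKM against 16.4 and 5.55 FPKM (-2.94).

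The 12 genes with the highest ratios began with Cbs, cystathionine beta-synthase of the transsulfuration pathway. It had 5.02 FPKM in Nfat5-KO_600, 0.417 FPKM in the deeper and 0.145 FPKM in the shallower Scr_600 library, a log2 ratio of 3.75. Cldn8, a claudin of the collecting duct that tightens the paracellular path to cations, had 10.9 FPKM against 0.411 and 1.18 FPKM (3.62). Hsd11b2, which inactivates glucocorticoids in aldosterone target cells, had 6.18 FPKM against 0.615 and 0.696 FPKM (3.06). These were genes at or below about 1 FPKM in every control library. Gata3, a transcription factor of the collecting duct lineage, had 30.0 FPKM against 1.77 and 6.88 FPKM (2.77), and here the control libraries were more than 3-fold apart but both far below the knockout mean. Rnase4, a secreted ribonuclease, had 11.6 FPKM against 1.53 and 1.81 FPKM (2.73). Trp53inp1, a p53-induced nuclear protein, had 7.66 FPKM against 0.944 and 1.53 FPKM (2.54). Scnn1a, the alpha subunit of the epithelial sodium channel ENaC, had 7.03 FPKM against 0.769 and 1.86 FPKM (2.33). The knockout mean was above each control library in all of these genes. Rasl11a, a small GTPase, had 50.7 FPKM against 8.12 and 9.79 FPKM (2.49). Fbln2, an extracellular matrix protein, had 25.7 FPKM against 4.51 and 4.96 FPKM (2.42), and Padi2, a peptidylarginine deiminase, 38.6 FPKM against 6.29 and 9.67 FPKM (2.26). Tigit, known as an immune receptor of lymphocytes, had 20.5 FPKM against 4.04 and 4.03 FPKM (2.31). The histone gene Hist2h3c2 had 8.42 against 1.69 FPKM (2.25), with no recovered library values.

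**Figure D2:**
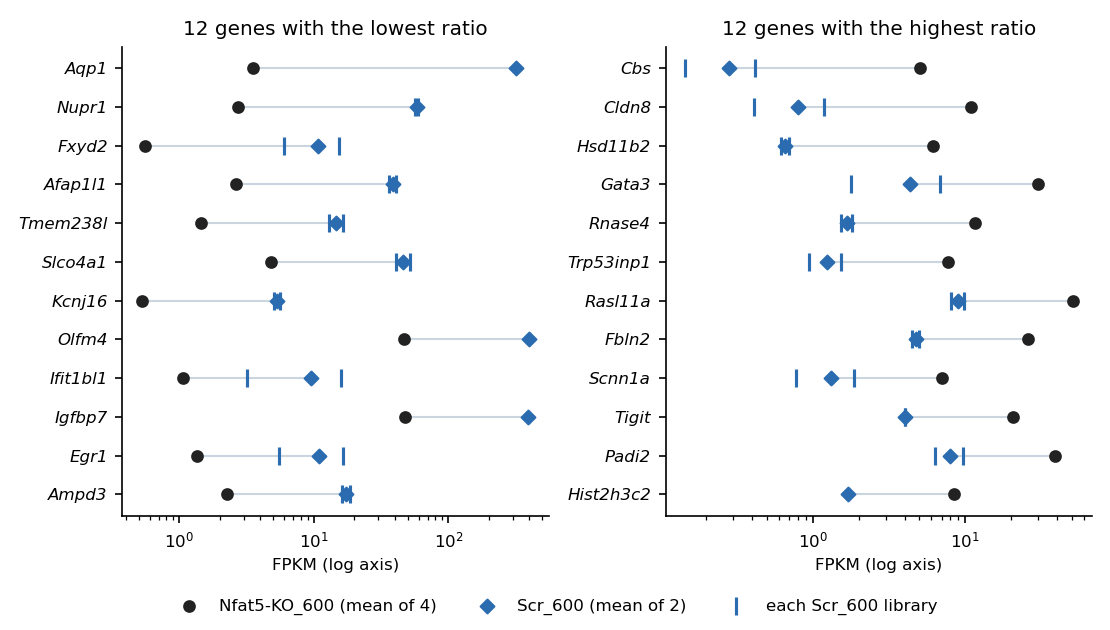
FPKM (log axes) of the 12 genes with the lowest (left) and the 12 with the highest (right) ratio of Nfat5-KO_600 to Scr_600. Black circles are the mean of the 4 Nfat5-KO_600 libraries, blue diamonds the mean of both Scr_600 libraries and blue ticks each Scr_600 library where it was recovered with up to 20000 reads, and the knockout mean lies outside the ticks in every gene that has them.

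In absolute terms, the largest decreases included very abundant transcripts. Eef1a1, a translation elongation factor, had 1787 against 2383 FPKM and mt-Co1, a mitochondrial cytochrome oxidase subunit, 2184 against 2561 FPKM, both under 2-fold, and Olfm4, Igfbp7, the neutrophil chemokine Cxcl5 (213 against 550.0 FPKM) and Aqp1 followed. The largest increases were those of Ftl1 (ferritin light chain, 741 against 545 FPKM), Gstm1 (a glutathione transferase, 355 against 172 FPKM, with 132 and 212 FPKM in the Scr_600 libraries), Hsp90aa1 (500.0 against 363 FPKM), Skp1a (431 against 297 FPKM), Usmg5 (402 against 270.1 FPKM) and Wfdc2 (673 against 546 FPKM). Of these 6 genes, Gstm1 alone was past 2-fold.

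The 4 named genes with at least 2 FPKM in one group and under 0.1 FPKM in the other all had their expression in Scr_600. Ranbp3l, a nuclear export factor for Smad proteins, had 0.0127 FPKM in Nfat5-KO_600 compared with 3.53 FPKM in Scr_600. Ccl2, the monocyte chemokine, had 232 reads in the deeper and 142 reads in the shallower Scr_600 library and 0, 0, 1 and 1 reads in the Nfat5-KO_600 libraries in order of depth. The X-linked homeobox gene Rhox5 had 0.0335 against 2.75 FPKM, and Mir133a-2 had 0.0641 against 2.12 FPKM. Ccl2 thus had at most 1 read in any knockout library, where a count of 0 allows up to 3 expected reads. In the isotonic groups Ranbp3l had 0.00118 FPKM in Nfat5-KO_300 and was listed at 0 in Scr_300, so of the 4 groups Scr_600 was the one with more than 0.1 FPKM, whereas Rhox5 had 4.47 FPKM in Scr_300 and 0.126 FPKM in Nfat5-KO_300.

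Some genes were at 0 in part of the knockout libraries. Slc6a12, the betaine transporter, had 0, 0, 31 and 25 reads in the Nfat5-KO_600 libraries in order of depth, against 136 and 321 reads in the Scr_600 libraries. Ptgds, a prostaglandin D2 synthase, had 0, 0, 16 and 8 reads against 268 and 92 reads, and Slc17a1, a phosphate and urate carrier, had 0, 0, 5 and 5 reads against 23 and 109 reads. Among the 962 genes with 4 knockout library values, 8 had no read in the pair of deeper libraries and at least 10 in the other pair, and none had the opposite pattern, while the 4 libraries together held 11932, 11311, 13659 and 12375 reads over these genes. Kcnj1, the ROMK potassium channel, had 2, 1, 22 and 9 reads against 95 and 80, and Lifr, the leukemia inhibitory factor receptor, had 1, 0, 7 and 11 reads against 466 and 392. In each of these 5 genes every knockout library was below both control libraries. Which libraries came from clone N1 and which from clone N3 was not recovered, and Ptgds was chosen for mention after its values were seen.

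The list of genes of osmolyte balance, not all of them established NFAT5 targets, had 8 genes in the comparison. Of these 3 were 2-fold lower or more and 1 was 2-fold higher, and the median was -0.61. Slc6a12 had 0.135 FPKM in Nfat5-KO_600 compared with 1.20 and 2.99 FPKM in the Scr_600 libraries (-3.23). Akr1b3, aldose reductase, had 39.2 against 175 FPKM (-2.16), and Slc5a3, the myo-inositol transporter, had 2.27 FPKM against 5.84 and 3.55 FPKM (-1.02). All 3 supply organic osmolytes. Sord, sorbitol dehydrogenase, which removes sorbitol, went the other way with 1.56 FPKM against 0.389 and 0.581 FPKM (1.5). Slc38a2, a neutral amino acid transporter, had 36.5 against 63.4 FPKM (-0.80), and Slc6a6, the taurine transporter, 33.0 against 33.7 FPKM (-0.03). The taurine transporter was thus at nearly the same level in both groups, and its log2 ratio at 300 mosmol/kg was -0.53. All 8 genes were lower in Nfat5-KO_300 than in Scr_300, Sord included (0.670 against 1.39 FPKM), with a median of -0.46, but Slc6a12 was hardly detected there (listed at 0 and at 0.00512 FPKM) and Pnpla6, a phospholipase, was at 3.41 against 3.53 FPKM. Of the 5 genes with library values, 3 were lower than each Scr_600 library, and the medians against the deeper and the shallower library were -0.56 and -0.28.

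The TonE motif was searched on both strands in promoter windows of 300 bases, from 250 bases before to 50 bases after a RefSeq start site of GRCm38.p6. Windows were available for 8935 of the 13063 genes, and 4.36% of these genes held a match. The share was 9.33% (21 of 225) among the genes at least 2-fold lower and 2.56% (7 of 273) among those at least 2-fold higher. Of the 18 lower genes with a match and library values, 14 were 2-fold lower than each Scr_600 library. A match is a run of letters and not evidence of binding. The windows of Slc6a12 and Nupr1 are shown because they belong to the osmolyte transporter and to the second lowest gene, with the TonE matches in capitals. Slc6a12 had 5 windows with 1 match in all, and the stretch with this match is from chr6:121342439-121342569 on the plus strand. That of Nupr1, which holds 2 matches, is from chr7:126625621-126625720 on the minus strand.
Slc6a12: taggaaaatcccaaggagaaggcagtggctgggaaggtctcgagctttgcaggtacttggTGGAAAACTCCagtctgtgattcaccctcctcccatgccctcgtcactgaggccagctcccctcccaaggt
Nupr1: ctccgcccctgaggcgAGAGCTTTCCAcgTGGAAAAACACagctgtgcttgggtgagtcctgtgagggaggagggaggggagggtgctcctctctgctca

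The windows of Sord, Slc5a3, Aqp1 and Kcnj16 held no TonE match, and Akr1b3, Fxyd2 and Afap1l1 had no window in the table used.

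Among the chaperones, the largest differences were those of Hsp70 and Hsp110 genes. Of 13 such genes, 3 were 2-fold lower or more and none 2-fold higher, and their median was -0.30. Hspa1a, an inducible Hsp70, had 0.175 FPKM in Nfat5-KO_600 compared with 4.33 and 4.75 FPKM in the Scr_600 libraries (-4.07). Its near-identical copy Hspa1b had 42.5 against 231 FPKM (-2.44), and reads may be split between the copies in ways that cannot be seen here. Hspa4l, an Hsp110 family member induced by osmotic stress, had 11 against 35 FPKM (-1.66). These were the 3 genes past 2-fold. Hsph1 had 84.2 against 158 FPKM (-0.90), while Hspa5, the ER chaperone BiP, had 94.0 against 118 FPKM (-0.33), and without the deeper Scr_600 library the median over the 5 members with library values was 0.05. Of the 6 small heat shock proteins compared, 4 were lower, with a median of -0.63 and none past 2-fold, among them Cryab, alpha-B crystallin, with 157 against 256 FPKM (-0.70) and Hspb2 with 5.22 FPKM against 6.75 and 10.8 FPKM. Their median over the 5 with library values was -0.09 against the deeper and -0.80 against the shallower library. The 35 co-chaperones, Hsp90 genes and chaperonins were divided evenly, with 17 higher, 18 lower and none past 2-fold. Their median was -0.04, and Dnajb4 lay farthest from 0 with 4.11 FPKM against 2.04 and 2.12 FPKM. The heat shock element, searched as 3 alternating GAA and TTC units with NN between them, was found in 0.526% of all genes with a window and in 2 of 225 lower genes (0.889%), and not in the windows of Hspa1a, Hspa1b or Hspa4l, while Hsph1 held 2 matches. It lay in 1 of 9 Hsp70 and Hsp110 genes with a window and in 4 of 31 co-chaperone genes (12.9%).

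Among the genes of water transport, Aqp1 stood alone. Of 13 genes of water channels and vasopressin signalling, 1 was 2-fold lower and 1 2-fold higher, and the median was 0.05. Aqp6, an intracellular channel of intercalated cells, had 3.53 FPKM against 0.933 and 1.22 FPKM (1.62), Aqp3, a basolateral channel of principal cells, 2.82 FPKM against 1.71 and 2.43 FPKM, and Aqp5 4.96 FPKM against 2.63 and 5.39 FPKM. Aqp6 was above both control libraries, and Aqp5 lay between them. At 300 mosmol/kg Aqp1 had 0.653 FPKM in Nfat5-KO_300 compared with 23.6 FPKM in Scr_300 (-4.98), and Aqp6 had 0.101 and 0.139 FPKM.

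The sodium pump and its FXYD regulators were lower in 5 of 7 genes, with a median of -0.35. Over the 5 genes with library values the median was -0.45 against the deeper and 0.06 against the shallower Scr_600 library. Beside Fxyd2, Atp1b1, the beta subunit of the pump, had 76.6 against 198 FPKM (-1.37) and Atp1b3 22.8 FPKM against 43.0 and 45.2 FPKM (-0.95). Fxyd5, also called dysadherin, had 1.84 FPKM against 0.681 and 0.462 FPKM (1.53). Of 8 potassium channel genes, 2 were 2-fold lower, Kcnj16 and Kcnj1 (0.0740 FPKM against 0.767 and 0.683 FPKM), and both were below each Scr_600 library, while the median of the list was 0.03. Kcnk1, a 2-pore channel and the most abundant of the list, had 54.7 against 89.5 FPKM (-0.71).

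The genes of aldosterone-sensitive sodium transport moved in both directions. Of 12 genes of ENaC and corticosteroid signalling, 2 were 2-fold higher (Hsd11b2 and Scnn1a) and 2 were 2-fold lower. Sgk1, the kinase that raises ENaC activity, had 0.513 FPKM against 4.03 and 4.53 FPKM (-2.84), and Hsd11b1, which activates glucocorticoids, 0.265 FPKM against 0.855 and 1.08 FPKM (-1.55). In all 4 genes the knockout mean lay outside both control libraries by more than 2-fold. The receptors for mineralocorticoids, Nr3c2 (1.12 FPKM against 0.682 and 0.629 FPKM), and for glucocorticoids, Nr3c1 (13.0 FPKM against 8.55 and 8.84 FPKM), were higher than each library but under 2-fold. Sgk1 at 300 mosmol/kg was at 0.444 FPKM in Nfat5-KO_300 compared with 0.262 FPKM in Scr_300, so its low level in Nfat5-KO_600 was near that of both isotonic groups. Of 28 carriers of sodium, chloride and bicarbonate, 21 were higher and 2 past 2-fold, Slc4a3, an anion exchanger (1.31 FPKM against 0.435 and 0.513 FPKM), and Lrrc8c, a subunit of volume-regulated anion channels (10.6 FPKM against 6.28 and 3.95 FPKM). Their median was 0.27 (0.17 against the deeper and 0.32 against the shallower library), and 12 of the 21 with library values were higher than each Scr_600 library, where this held for 38.2% of all genes. Of all 13063 genes, 6246 were higher and 3.76% were 2-fold higher.

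Claudins and other tight junction genes had a median of -0.03 over 18 genes, with 9 higher and 9 lower. Cldn8 and Cldn4 were the ones past 2-fold, in opposite directions. Cldn4, a claudin of the collecting duct that forms a chloride path together with Cldn8, had 42.5 FPKM against 162 and 135 FPKM (-1.80), and Cldn3 had 45.1 FPKM against 80.1 and 88.1 FPKM (-0.90). Cldn1 was at 1.08 FPKM against 1.78 and 1.98 FPKM, so that all 3 of these claudins were below each control library while Cldn8 was above each. The list of keratins and vimentin had 9 genes in the comparison, which were keratins and Nes, while Vim (0.00301 FPKM in Nfat5-KO_600) did not enter. Krt23 was lower with 0.0811 FPKM against 1.05 and 2.04 FPKM. Krt5, a basal cell keratin, was higher with 3.56 FPKM against 0.490 and 0.946 FPKM (2.16), as was Krt20, a keratin of superficial epithelium and injured tubules, with 17.5 FPKM against 6.64 and 7.99 FPKM (1.25). The keratins of simple epithelia, Krt8, Krt18 and Krt19, had log2 ratios of -0.38, -0.19 and -0.46.

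Transcription factors of the kidney epithelium were divided, with 3 of 15 past 2-fold upward and 2 past it downward, and a median of -0.07. Beside Gata3, Gata2 had 13.3 FPKM against 3.7 and 5.52 FPKM (1.51) and Tfcp2l1, a regulator of collecting duct cell types, had 53.4 FPKM against 24.7 and 25.6 FPKM (1.08). Pax2, needed for the development of the nephric duct, had 7.85 FPKM against 40.3 and 47.1 FPKM (-2.46), and Ehf, an epithelial ETS factor, 15.8 FPKM against 30.9 and 41.4 FPKM (-1.19). The control libraries of each of these 4 genes lay on the same side of the knockout mean.

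Genes of BMP and TGF-beta signalling and the Id genes were higher in 18 of 23 cases, with a median of 0.53, and 5 were past 2-fold. Id1, Id2 and Id3, inhibitors of helix-loop-helix factors and known targets of BMP signalling, had 80.2, 82.0 and 49.9 FPKM in Nfat5-KO_600. In the Scr_600 libraries they had 19.4 and 24.4 FPKM (Id1), 33.7 and 35.1 FPKM (Id2) and 7.41 and 17.8 FPKM (Id3). Bmp7, a ligand made by the collecting duct, had 19.3 FPKM against 6.43 and 8.38 FPKM (1.37). These 4 genes were 2-fold higher than each Scr_600 library. Of the 21 genes with library values 15 were higher than each, where this held for 38.2% of all genes. Tgfb2 went the other way with 0.329 FPKM against 0.507 and 1.34 FPKM (-1.25), and Smad1, which carries the BMP signal, had 1.79 FPKM against 3.42 and 3.62 FPKM. The Id genes were also higher at 300 mosmol/kg (Id3 34.5 against 8.12 FPKM, Id1 92.1 against 27.0 FPKM). In the IGF axis, with 7 genes and a median of 0.12, Igfbp7 was lower and Igf2r, the receptor that clears IGF2, was higher, with 11.4 FPKM against 2.76 and 4.28 FPKM (1.67).

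All 24 genes of cholesterol synthesis and uptake were lower in Nfat5-KO_600 (median -0.68), and 3 of them were past 2-fold. Stard4, a sterol carrier, had 7.05 FPKM against 18.7 and 15.2 FPKM (-1.25). Hsd17b7 had 4.75 FPKM against 10.6 and 8.73 FPKM (-1.01), and Idi1, isopentenyl-diphosphate isomerase, 13.9 FPKM against 32.3 and 23.7 FPKM (-1.0). The control libraries of these genes did not reach down to the knockout mean. Lss, lanosterol synthase, had 7.83 FPKM against 18.8 and 11.3 FPKM (-0.93). All 12 genes with library values were lower than each Scr_600 library, where this held for 35.4% of all genes, and with the wider limit of 20000 reads it was all 21. The medians against the deeper and the shallower library were -0.69 and -0.35. In isotonic culture 17 of the 24 genes were lower, with a median of -0.12. The sterol regulatory element TCACNCCAC, which was searched after the list had been seen, lay in the window of 1 of 16 genes with one (6.25%), Hmgcs1, against 1.42% of all genes.

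Ribosome biogenesis was lower in 37 of 40 genes, none of them past 2-fold, with a median of -0.33. Ltv1, a factor of small subunit export, had 24.1 FPKM against 39.8 and 38.0 FPKM (-0.69), Npm1, nucleophosmin, 197 against 310 FPKM (-0.65) and Tsr1 10.5 FPKM against 19.6 and 11.9 FPKM (-0.58). Of the 30 genes with library values 23 were lower than each Scr_600 library and none was higher than each. The deeper library was above the shallower one in 28 of the 30, and the medians against them were -0.43 and -0.13. In the isotonic groups 35 of the 40 genes were higher in the knockout cells, with a median of 0.24. Aminoacyl-tRNA synthetases were lower in 18 of 20 genes, with a median of -0.38 (-0.16 and -0.12 against the libraries over 5 genes), led by Vars (59.1 against 113 FPKM), Nars (48.6 against 81.0 FPKM) and Cars (10.9 FPKM against 19.5 and 16.1 FPKM). The 80 cytosolic ribosomal proteins had a median of -0.19 (63 lower) and Rps2 was farthest from 0, with 413 against 707 FPKM, while the 77 mitochondrial ribosomal proteins had a median of -0.16 (58 lower), with -0.04 against the deeper and -0.29 against the shallower library over 74 genes. None of these proteins was past 2-fold. Of the 4355 most highly expressed genes 62.2% were lower, with a median of -0.09, and scaling to TPM moved the median of all genes from -0.02 to 0.11.

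**Figure D3:**
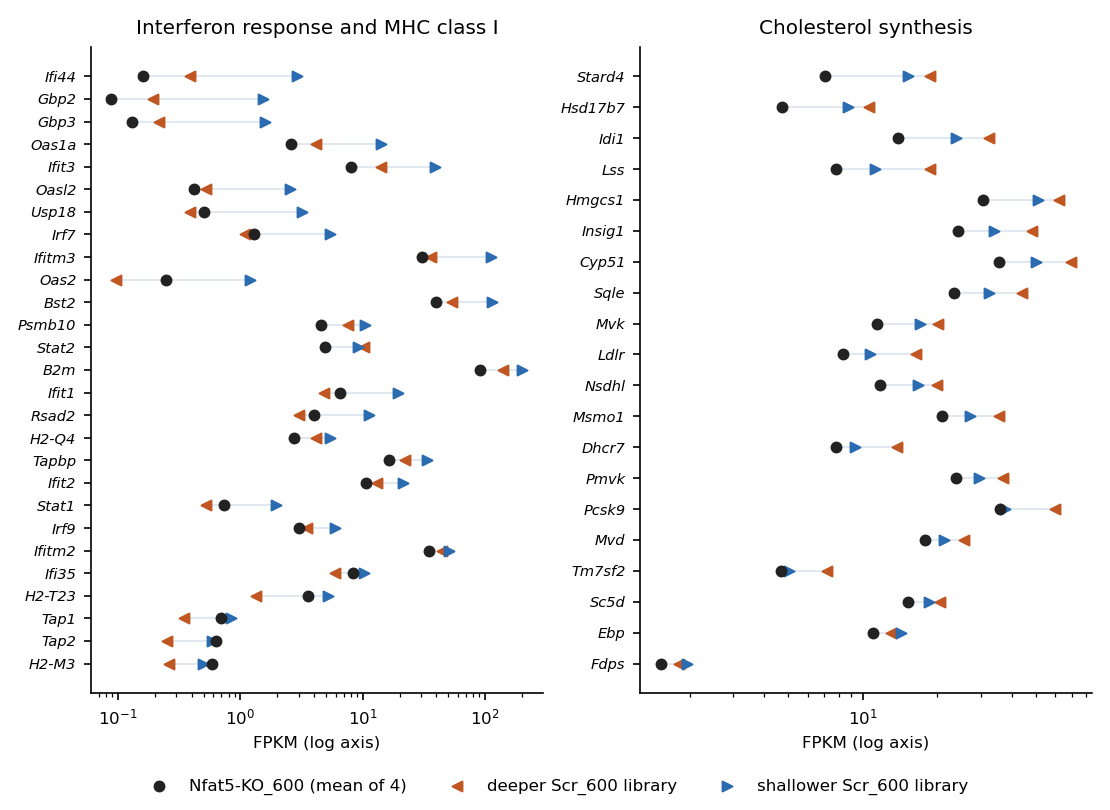
FPKM (log axes) in Nfat5-KO_600 (black circles, mean of 4 libraries) and in the deeper (orange, pointing left) and shallower (blue, pointing right) Scr_600 library, for genes of the interferon response and MHC class I (left) and of cholesterol synthesis (right) with recovered library values up to 20000 reads that are reported here. For cholesterol synthesis every black circle lies left of both triangles, whereas for the interferon response the orange triangles lie near the black circles and the blue ones mostly far to the right.

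The interferon response and MHC class I genes had the lowest median of the lists that the study had not chosen, -0.82, with 26 of 31 genes lower and 11 at least 2-fold lower. This difference moved with 1 control library. Over the 26 genes with library values, the median log2 ratio was -0.26 against the deeper and -1.38 against the shallower Scr_600 library, and the deeper library was below the shallower one in 25 of the 26 genes. Ifi44 had 0.160 FPKM in Nfat5-KO_600, 0.387 FPKM in the deeper and 2.88 FPKM in the shallower Scr_600 library. Gbp2, a guanylate-binding protein, had 0.0884 FPKM against 0.193 and 1.53 FPKM, Gbp3 0.131 FPKM against 0.214 and 1.58 FPKM, and Oas1a, an oligoadenylate synthetase, 2.59 FPKM against 4.11 and 14.1 FPKM. Usp18, Irf7 and Oas2 were higher in Nfat5-KO_600 than in the deeper library. By the ratio of FPKM + 0.1, no gene of the list was 2-fold lower than each Scr_600 library, although 15 of the 26 were lower than each. The 0.1 matters at such low levels, as Ifi44 and Gbp2 were more than 2-fold below each library in plain FPKM. At 300 mosmol/kg the median was -0.34 and 26 of 31 genes were lower, and the part of the shallower Scr_600 library in the hypertonic difference was not tested beyond these values.

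The interferon-stimulated response element (ISRE), searched as 2 GAAA units with NN between them on both strands after the result for this list had been seen, lay in the window of 13 of 27 of its genes (48.1%) and in 3.41% of all genes. It also lay in 23 of 225 2-fold lower genes (10.2%) and in 6 of 273 2-fold higher genes (2.20%). Of the 21 lower genes with a match and library values, 10 were 2-fold lower than each Scr_600 library, and in 13 the Scr_600 libraries were 2-fold apart. Windows of 3 genes of the list and of Ifit1bl1 are shown with the matches in capitals, because the Scr_600 libraries were more than 2-fold apart in each. Of these, Ifit1bl1 was 2-fold lower than each library and the other 3 were not. Gbp2 is from chr3:142620544-142620662 (plus strand), Gbp3 from chr3:142559939-142560043 (plus strand), Oas1a from chr5:120907526-120907605 (minus strand) and Ifit1bl1 from chr19:34602003-34602132 (minus strand). In Gbp3 and Oas1a 2 overlapping matches form 1 run of capitals. Gbp3 and Ifit1bl1 had 2 windows each, of which 1 is shown.
Gbp2: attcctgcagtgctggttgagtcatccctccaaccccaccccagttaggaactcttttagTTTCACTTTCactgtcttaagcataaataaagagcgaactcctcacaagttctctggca
Gbp3: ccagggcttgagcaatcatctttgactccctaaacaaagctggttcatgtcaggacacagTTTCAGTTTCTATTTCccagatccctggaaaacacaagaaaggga
Oas1a: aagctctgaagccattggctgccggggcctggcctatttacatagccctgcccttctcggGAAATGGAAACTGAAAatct
Ifit1bl1: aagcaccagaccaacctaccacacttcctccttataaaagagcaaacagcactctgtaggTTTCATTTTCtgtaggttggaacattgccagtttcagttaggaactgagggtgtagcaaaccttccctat

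For glycolysis genes and the other targets of the hypoxia-inducible factor HIF, the medians over genes with library values also depended on the control library. Glycolysis had a median of -0.66 over 19 genes, with 13 lower and 3 at least 2-fold lower, namely Ldha, lactate dehydrogenase (97.98 against 282.6 FPKM), Pdk1 and Slc2a1, the glucose transporter GLUT1 (13.2 FPKM against 26.4 and 32.0 FPKM). Pdk1, a kinase that keeps pyruvate out of mitochondria, had 2.61 FPKM against 2.87 FPKM in the deeper and 12.2 FPKM in the shallower library. Over the 10 glycolysis genes with library values, the median was 0.15 against the deeper and -0.45 against the shallower library, and the abundant enzymes such as Ldha and Pkm (241 against 438 FPKM) had no library values. For HIF regulators and targets outside glycolysis, with 15 of 23 genes lower and a median of -0.25, these medians were 0.21 and -0.53 over 20 genes. Ankrd37 had 2.49 FPKM against 1.05 and 12.8 FPKM, and Bnip3, of mitophagy, 6.20 FPKM against 3.16 and 22.5 FPKM, so that the knockout mean lay between the control libraries. Vegfa, the endothelial growth factor, and Adm, adrenomedullin, were 2-fold lower than each Scr_600 library, with 2.47 FPKM against 7.73 and 8.78 FPKM (-1.70) and 0.833 FPKM against 2.10 and 3.62 FPKM (-1.66). In isotonic culture 16 of the 19 glycolysis genes and 19 of the 23 other genes were lower in the knockout cells, with medians of -0.31 and -0.34.

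Of 25 p53 targets, 15 were higher and 4 past 2-fold, with a median of 0.17, where 6246 of all 13063 genes were higher and 3.76% 2-fold higher. Beside Trp53inp1, these were Fas, a death receptor (1.14 FPKM against 0.170 and 0.345 FPKM), Ccng1, cyclin G1 (28.9 FPKM against 10.7 and 11.4 FPKM), and Mdm2, the ubiquitin ligase that degrades p53 (29.4 FPKM against 14.8 and 13.1 FPKM). Of the 23 genes with library values 15 were higher than each Scr_600 library, where this held for 38.2% of all genes. Cdkn1a, the cell cycle inhibitor p21, had 20.5 FPKM against 7.60 and 20.4 FPKM, so its level was that of the shallower control library. In the isotonic groups the log2 ratio of Trp53inp1 was 0.04, that of Fas 0.17, that of Ccng1 0.19 and that of Mdm2 0.24.

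The NRF2 and glutathione genes were divided, with 15 of 30 higher, 15 lower and a median of 0.00, but 5 were at least 2-fold higher. They were Ephx1, microsomal epoxide hydrolase (14.9 FPKM against 3.12 and 3.82 FPKM, 2.07), Gsta4, a glutathione transferase (14.2 FPKM against 3.51 and 4.29 FPKM, 1.84), Hmox1, heme oxygenase (73.9 FPKM against 26.3 and 24.6 FPKM, 1.53), Gclc, of glutathione synthesis (42.6 FPKM against 19.1 and 13.4 FPKM, 1.38), and Gstm1. Nqo1, a quinone reductase, was lower with 20.4 FPKM against 48.0 and 35.1 FPKM (-1.02), so the typical targets of NRF2 did not share a direction. Of 23 aldehyde and aldo-keto dehydrogenases, 7 were at least 2-fold higher and Akr1b3 was the one gene at least 2-fold lower, with a median of 0.32. Cbr3, a carbonyl reductase, had 3.05 FPKM against 0.215 and 0.182 FPKM (3.40), Akr1c19 3.31 FPKM against 0.448 and 0.850 FPKM (2.19) and Aldh3a1, an aldehyde dehydrogenase, 0.60 FPKM against 0.0277 and 0.0440 FPKM (2.37). Of the 20 with library values, 13 were higher than each Scr_600 library, where this held for 38.2% of all genes. Their median was 0.68 against the deeper and 0.22 against the shallower library.

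Of 25 genes of ER stress and the ATF4 response, 18 were lower and 5 at least 2-fold lower, with a median of -0.18. Xbp1, a transcription factor of the unfolded protein response, had 4.47 FPKM against 12.1 and 18.2 FPKM (-1.74). Psat1, of serine synthesis, had 42.4 against 139 FPKM (-1.71), Chac1 8.16 FPKM against 26.9 and 18.2 FPKM (-1.45) and Trib3 8.36 FPKM against 24.2 and 16.3 FPKM (-1.26), all known targets of ATF4. Xbp1 and Chac1 were 2-fold lower than each Scr_600 library, while the median of the 15 genes with library values was -0.09 against the deeper and 0.01 against the shallower one. Amino acid transporters were lower in 11 of 15 genes, with a median of -0.41, and over the 8 with library values the median was -0.78 against the deeper and -0.15 against the shallower library. Without the expression filter their median was -0.02. Slc6a9, the glycine transporter GlyT1, had 1.19 FPKM against 3.91 and 3.80 FPKM (-1.62) and was the one gene past 2-fold, while Slc7a6 had 25.9 FPKM against 52.3 and 50.7 FPKM (-0.99).

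Chemokines, cytokines and injury markers were lower in 17 of 26 genes, with a median of -0.49, and 6 were at least 2-fold lower. Beside Ccl2, Cxcl2 had 3.41 FPKM against 15.7 and 13.8 FPKM (-2.08), Cxcl1 5.31 FPKM against 22 and 16.4 FPKM (-1.83) and Ccl20 8.86 FPKM against 40.5 and 20.7 FPKM (-1.78). These 4 chemokines were 2-fold lower than each control library, while the median of the 22 genes of the list with library values was -0.24 against the deeper and -0.15 against the shallower one. Lcn2, a marker of tubular injury that neutrophils also make, had 63.1 against 195 FPKM (-1.63). Havcr1, the kidney injury molecule KIM-1, went the other way with 2.01 FPKM against 0.140 and 0.172 FPKM (3.04). At 300 mosmol/kg Cxcl2, Cxcl1 and Ccl20 had log2 ratios of -0.56, -0.30 and 0.48.

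Immediate early and MAPK feedback genes had a median of -0.08 over 32 genes, with 3 lower and 3 higher by 2-fold or more. Egr1, Dusp6 (10.3 FPKM against 80.9 and 36.4 FPKM, -2.50) and Dusp1 (3.05 FPKM against 14.9 and 8.66 FPKM, -1.92), phosphatases that switch off MAP kinases, were lower, and Klf2 (1.5 FPKM against 0.437 and 0.370 FPKM, 1.66) was higher. The deeper Scr_600 library was above the shallower one in 20 of the 27 genes with library values. Of 21 YAP and SRF targets 16 were lower, with a median of -0.46. Cyr61, a matricellular YAP target, had 9.85 against 38.4 FPKM (-1.95) and Tpm1, tropomyosin, 40.9 against 155 FPKM (-1.92), whereas Axl, a receptor tyrosine kinase (40.3 FPKM against 17.8 and 13.4 FPKM, 1.36), and Cav1, caveolin (11.1 FPKM against 5.15 and 5.02 FPKM, 1.12), were higher. The median of the 8 genes with library values was 0.24, which leaves out Cyr61 and Tpm1, which had none. Collagens, laminins and integrins had a median of 0.23 over 26 genes, with 16 higher, and Lama3, of laminin-332 (2.38 FPKM against 0.153 and 0.615 FPKM, 2.36), Col4a4 (0.837 FPKM against 0.0964 and 0.354 FPKM) and Col7a1 (0.812 FPKM against 0.432 and 0.185 FPKM) were past 2-fold. Of 10 metallothionein and zinc transport genes with a median of -0.03, Mt1 was the one past 2-fold, and its 6.92 FPKM compared with 7.15 FPKM in the deeper and 24.6 FPKM in the shallower library.

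Genes of cell division and respiration differed little. None of 33 DNA replication genes (median -0.08) and none of 30 mitosis genes (median -0.02) was past 2-fold, and Gins2 (3.5 FPKM against 4.11 and 5.84 FPKM) and Cenpe (14.7 FPKM against 10.3 and 9.94 FPKM) lay farthest from 0. The 69 nuclear genes of oxidative phosphorylation had a median of -0.14 (0.09 against the deeper and -0.28 against the shallower library over 45 genes), and Cox7a1 alone was past 2-fold, with 3.38 FPKM against 0.755 and 1.65 FPKM. The 13 protein-coding genes of the mitochondrial genome had a median of -0.24, with 11 lower and none past 2-fold, and over 6 of them the medians against the deeper and the shallower library were -0.79 and -0.34.

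The genes that the study named for these cells had the lowest median of all lists, -2.94, with 11 of 12 genes lower and 10 at least 2-fold lower. The list held 17 genes, and Adgrf1 (-1.31), Meox2 (-0.77), Aqp2 (-0.11), Slc6a18 (0.05) and Gsdmc2 (0.72) did not pass the expression filter. Ranbp3l, Lifr, Slc6a12, Slc17a1 and Kcnj1 passed it through their level in Scr_600 alone. The median thus depends in part on the filter, and without it the median was -2.16. The study chose the genes of this list on these samples, and Slc6a12 and Akr1b3 are also in the osmolyte list, so their direction is not independent evidence. Of the 8 with library values, 7 were lower than each Scr_600 library and Cldn8 was higher than each, and the libraries differed 2-fold in 5 of them. Prss35 is an example, with 1.57 FPKM against 2.04 FPKM in the deeper and 5.78 FPKM in the shallower library.

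**Figure D4:**
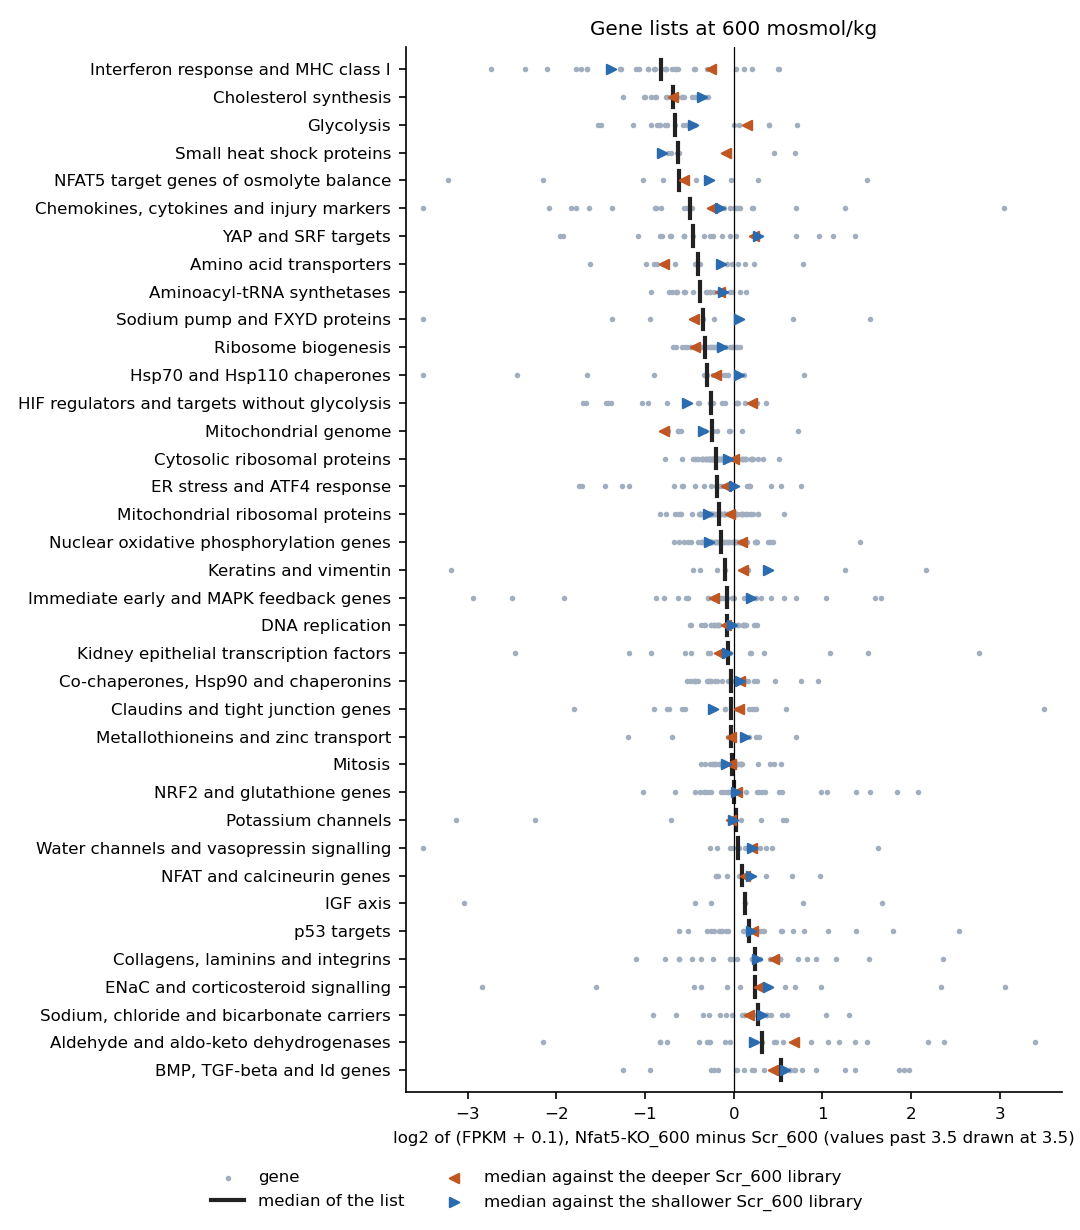
log2 ratio of FPKM + 0.1 between Nfat5-KO_600 and Scr_600 for each gene (grey points) of the gene lists, with the median of each list (black bar) and, over the members with recovered library values, the median against the deeper (orange) and the shallower (blue) Scr_600 library alone. Lists are ordered by their median, from the interferon response (-0.82) to the BMP, TGF-beta and Id genes (0.53), and the coloured medians lie more than 0.5 apart for the interferon response, HIF, small heat shock protein, amino acid transporter, glycolysis and sodium pump lists.

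Among families of genes that share the start of their symbol, with at least 10 members in the comparison, the small nucleolar RNAs named Snord had the lowest median, -0.52 over 31 genes, of which 9 were at least 2-fold lower and none higher. Of the lower ones, Snord42b, Snord34, Snord93 and Snord87 passed the expression filter through Scr_600 alone and could only come out lower. The Snhg genes, named as hosts of small nucleolar RNAs, followed with -0.41 over 10 genes. Whether they host the Snord genes compared here was not examined. Then came the Cldn (-0.38), Zcchc (-0.38) and Parp (-0.34) families. The highest medians were those of the group starting with S, mostly S100 calcium-binding proteins (0.41 over 12 genes), Arhgef, guanine nucleotide exchange factors (0.31 over 21 genes), and Klhl, adaptors of ubiquitin ligases (0.25 over 19 genes). Parp9 had 2.60 FPKM against 1.62 and 5.39 FPKM in the deeper and the shallower Scr_600 library. Its mean lay between them, as did those of Parp12 and Parp14, while Parp2, Parp8 and Parp11 were below each. Of the 2-fold lower Snord genes with library values, Snord73a (1.49 against 6.73 and 0.837 FPKM) and Snord83b lay between and the others below each. In the S group S100a1 lay between (31.1 against 16.1 and 32.2 FPKM), and the other higher genes were above each. All 129 small nucleolar RNAs of the annotation had 19.4% of genes 2-fold lower and 8.53% 2-fold higher, against 2.62% and 3.15% of the 10803 protein-coding genes. Small nucleolar RNAs are short, and a short gene passes the FPKM limit with few reads. Of 825 processed pseudogenes, whose reads may come from their parent genes, 68.6% were lower, with a median of -0.21.

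The median log2 ratio also differed between chromosomes. It was highest on chromosomes 16 (0.25 over 390 genes), 12 (0.23 over 485 genes) and 3 (0.20 over 655 genes) and lowest on the X chromosome (-0.14 over 379 genes). Against each Scr_600 library the medians were 0.31 and 0.22 on chromosome 16, 0.28 and 0.24 on chromosome 12, 0.33 and 0.14 on chromosome 3, and -0.11 and -0.12 on the X chromosome. Chromosome 6, at 0.20 and 0.17, was above chromosome 3 against the shallower library. On the X chromosome 14 genes (3.69%) were at least 2-fold lower, near the 3.68% of all genes, and 1 gene (0.264%) was at least 2-fold higher, where it was 3.76% of all genes. In the separate isotonic libraries the medians of chromosomes 16, 12, 3 and X were 0.24, 0.14, 0.16 and -0.09. The number of chromosome copies in the clones was not analysed here.

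The 300 mosmol/kg cultures share no library with those at 600 mosmol/kg, and their values were set beside the hypertonic ones for the same genes. In the isotonic groups 310 of 12704 genes (2.44%) were at least 2-fold lower and 220 (1.73%) at least 2-fold higher in Nfat5-KO_300 than in Scr_300. Of the 481 genes that were 2-fold lower at 600 mosmol/kg, 381 (79.2%) had the same direction in the isotonic cultures, which came from the same clones and the same Scr cells, and their median there was -0.51, and 100 of the 362 with enough expression were 2-fold lower at both. Of the 491 that were 2-fold higher, 380 (77.4%) were higher at 300 mosmol/kg, with a median of 0.44, and 77 of 347 were 2-fold higher at both. Of all 13063 genes, 6548 were lower and 6505 higher at 300 mosmol/kg. Genes with a large difference at both osmolalities included Aqp1, Igfbp7 (9.01 against 66.5 FPKM at 300 mosmol/kg), Nupr1 (1.47 against 8.98 FPKM), Cldn8 (3.71 against 0.291 FPKM) and Hsd11b2 (1.95 against 0.383 FPKM). Ampd3 (4.02 against 4.69 FPKM), Trp53inp1 (1.45 against 1.4 FPKM) and Scnn1a (3.56 against 2.95 FPKM) differed little at 300 mosmol/kg. Whether a gene's difference changed with osmolality was not tested.

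A small number of genes were at least 2-fold apart in opposite directions. Of the lower genes 6 were 2-fold higher at 300 mosmol/kg, among them Arc, an immediate early gene, which had 4.61 FPKM in Nfat5-KO_600 against 25.0 and 19.4 FPKM in the Scr_600 libraries, but 7.27 against 3.43 FPKM at 300 mosmol/kg. Serpinb9, an inhibitor of granzyme B, had 4.70 FPKM against 10.8 and 14.2 FPKM, but 19.5 against 6.72 FPKM. Of the higher genes 14 were 2-fold lower at 300 mosmol/kg, among them Cbs (0.498 against 1.46 FPKM at 300 mosmol/kg), Krt5 (2.22 against 8.51 FPKM) and Scara5, a ferritin receptor, which had 1.59 FPKM against 0.583 and 0.392 FPKM at 600 mosmol/kg and 1.00 against 3.66 FPKM at 300 mosmol/kg. Most of the other genes of this kind were microRNA and predicted genes at low FPKM.

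**Figure D5:**
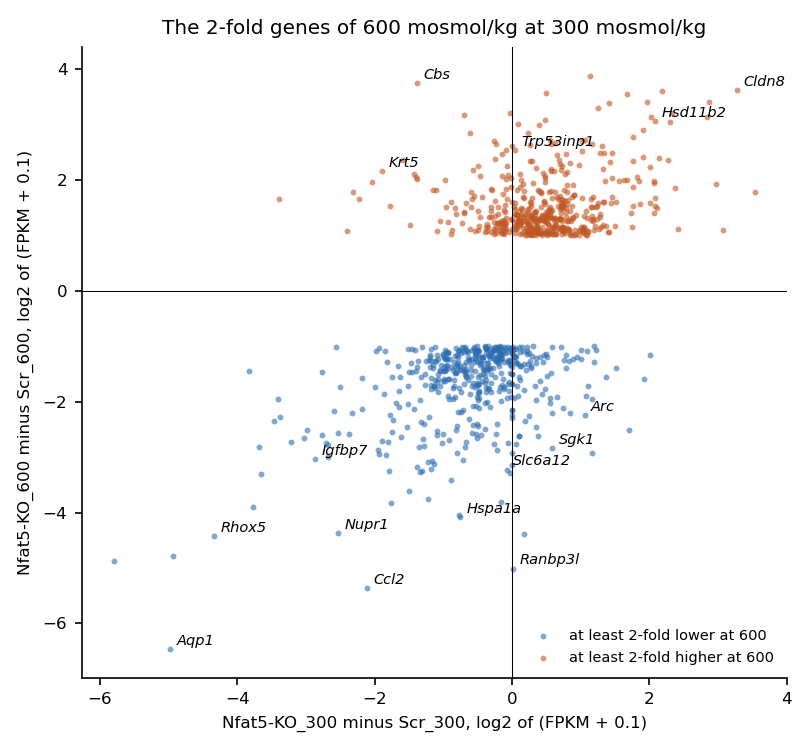
log2 ratio of FPKM + 0.1 between Nfat5-KO and Scr cells at 300 mosmol/kg (horizontal axis) and at 600 mosmol/kg (vertical axis) for the genes at least 2-fold lower (blue) or higher (orange) at 600 mosmol/kg. Most blue points lie left and most orange points right of the vertical line at 0, and Cbs and Krt5 are among the orange points on the left.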

How the data were processed

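RNA-seq of mpkCCD cells gave 12 libraries in 4 groups. The authors aligned reads to the mouse genome (mm10/GRCm38) with HISAT2, counted them with HTSeq and deposited 1 FPKM value per gene and group, the mean of its libraries. Versions and the annotation release are not given in the sources used here. Of 54839 rows, 2436 without a value and 311 exact duplicates were left out. Nfat5-KO_600 and Scr_600 were compared as log2 ratios of FPKM + 0.1 over genes with at least 0.5 FPKM in one of them. The deposited values, 1 per group, allow no test, and 2-fold is a limit of size. The genes with reads recovered in all 6 libraries were chosen by their low reads in Nfat5-KO_600 and were not tested.

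Library values were recovered as whole reads from FPKM and GENCODE M21 exon length. The deposited FPKM were split into the 2 Scr_600 libraries where exactly 1 combination of whole reads matched (10541 genes), for at most 8000 reads, and into the 4 Nfat5-KO_600 libraries for at most 120 reads (962 of 1170 genes tried). In simulated data for the Scr_600 libraries with known reads, 15 of 6057 readings between 1000 and 8000 reads were false, and 16 of 1262 between 8000 and 20000 reads. The recovery and its limits were chosen after the data were seen.

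Named genes were Nfat5; the 12 highest and 12 lowest ratios among genes with at least 5 FPKM in one and 0.1 in both groups; the 6 largest increases and 6 largest decreases in FPKM; genes with at least 2 FPKM in one and under 0.1 in the other; up to 4 members of each list with the largest ratios; and the genes the study names. Other genes named were chosen after their values were seen. Predicted genes were counted but not named, and some genes that the rule takes are not reported here. The members and lists were chosen with earlier results of these data known. Python 3.11.15, numpy 2.4.6, pandas 2.3.3 and matplotlib 3.10.9 were used. Promoter windows are from RefSeq (GRCm38.p6). Alternatives were other pseudocounts and filters, other scalings and leaving out either Scr_600 library.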

Additional observations from a re-analysis of the deposited data

Results flagged for a closer look

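Mir133a-2 had 1 read in the deepest Nfat5-KO_600 library and none in the other 3, against 10 and 6 reads in the Scr_600 libraries. The gap of that library to the other 3 made up the whole range of the group, which is above Dixon's critical value for 4 samples. With 1 read in the whole group any gene passes this limit, so nothing is read from it.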

How the results depend on the processing

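No paired analysis was possible because the deposited table holds 1 value per group. With a pseudocount of 1, the number of 2-fold higher genes was 135 and that of lower genes 203, without the expression filter 1086 and 798, and with a mean of at least 1 FPKM 259 and 289. The median log2 ratio of the genes named by the study was -1.25 with a pseudocount of 1, -3.30 with 0.01 and -2.16 without the filter. Without the filter the medians of small heat shock proteins, amino acid transporters, chemokines and BMP genes were -0.34, -0.018, -0.21 and 0.22. With a mean of at least 1 FPKM those of the sodium pump and of potassium channels were -0.95 and -0.37. Over genes with library values, those of YAP and SRF targets, glycolysis and the mitochondrial genome were 0.24, -0.19 and -0.61. When either Scr_600 library was left out, the medians ranged from -0.56 to -0.28 for osmolyte genes, -0.20 to 0.055 for Hsp70 genes, -0.80 to -0.089 for small heat shock proteins, -0.45 to 0.060 for the sodium pump, 0.11 to 0.39 for keratins, 0.23 to 0.27 for YAP and SRF targets, -0.45 to 0.15 for glycolysis, -0.53 to 0.21 for HIF targets, -0.69 to -0.35 for cholesterol synthesis, -1.38 to -0.26 for the interferon response, -0.24 to -0.15 for chemokines, -0.78 to -0.15 for amino acid transporters, 0.22 to 0.68 for aldehyde dehydrogenases, -0.79 to -0.34 for the mitochondrial genome and -3.26 to -2.39 for genes named by the study. These medians also rest on fewer genes. Ankrd37 was at -2.31 without the deeper Scr_600 library and changed sign, to 1.17, without the shallower one, and the cause was not tested. The spread between Nfat5-KO_600 libraries is known for 962 genes with few reads, and for other genes the error of the Nfat5-KO_600 means was not estimated.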
